A study of Homo sapiens with 6 samples.

Results

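The cytosolic ribosomal protein genes were taken as every row of the raw count table whose symbol is RPL or RPS followed by a number and at most 1 of the letters A, X, Y or L, together with RPLP0, RPLP1, RPLP2 and RPSA. The rule found 81 genes of 26364, 49 for the large subunit and 32 for the small subunit. Of these, 77 were among the 15611 genes that passed the filter on low counts, and 75 (45 large, 30 small) had a mean of at least 2 CPM (counts scaled to the size of the library). The rule reads symbols and no expression value, but the set was proposed with expression results of these libraries in view. Its group differences are therefore given as a description, and p-values are given only gene by gene, from fits over all genes.

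RNA was sequenced from the Ishikawa line, which derives from a human endometrial adenocarcinoma: the unedited parental cells and 2 ETV4 knockout clones. Each line gave 1 library from cells in 0.1% DMSO, the vehicle, and 1 from cells in 10 nM E2 (17β-estradiol), so a group held 1 parental library or n = 2 clones. All cells had first been moved from full to hormone-depleted medium. The labels put the time in DMSO or E2 at 8 h in one field and at 1 h in another. Each knockout line was 1 clone, and how ETV4 was disrupted was not given in the sources used here. The parental line had no replicate, line and genotype cannot be told apart, and nothing says that libraries came from separate cultures, so p-values measure the spread between these libraries.

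Cytosolic ribosomes are built from ribosomal RNA and a near-fixed set of proteins, most of them needed at 1 copy per ribosome. Transcripts of ribosomal protein genes commonly start with a short pyrimidine run (the TOP motif), through which the cell adjusts their translation together, and growing cells devote a large part of their mRNA to them. ETV4 is a transcription factor of the ETS family, whose members bind DNA words built around GGAA, and ETS-type words are frequent in ribosomal protein promoters. E2 acts through the estrogen receptor, which promotes growth of endometrial epithelium.

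Because the knocked-out gene encodes an ETS factor, 6 member promoters are shown, from 120 bases before to 20 bases after the RefSeq start site (GRCh38.p14), 5′ to 3′ on the gene's strand. Capitals mark the ETS word CCGGAAG or its reverse complement CTTCCGG. The first 4 hold the word, against 22 of 64 members with a promoter, so the 6 do not represent the set. RPS10 and RPS3A had the 2 largest parental E2 differences among small-subunit genes. Of the other small-subunit genes at least 2-fold lower in parental E2, RPS6 and RPS14 hold the word, and RPS27, RPS7, RPS16 and RPS3 do not. RPL9, called in the knockout comparison, and RPL39, the most variable member, hold none in these windows.
RPS10, chr6:34426050-34426189, minus strand: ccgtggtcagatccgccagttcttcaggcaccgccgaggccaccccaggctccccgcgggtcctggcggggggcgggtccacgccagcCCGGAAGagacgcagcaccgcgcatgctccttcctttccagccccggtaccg
RPS3A, chr4:151099508-151099647, plus strand: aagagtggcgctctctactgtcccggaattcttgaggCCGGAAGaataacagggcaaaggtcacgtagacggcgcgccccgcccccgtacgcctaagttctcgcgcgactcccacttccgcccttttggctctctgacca
RPS14, chr5:150449720-150449859, minus strand: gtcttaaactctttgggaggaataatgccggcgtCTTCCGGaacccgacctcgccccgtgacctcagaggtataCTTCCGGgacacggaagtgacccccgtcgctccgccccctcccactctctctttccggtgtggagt
RPL26, chr17:8383174-8383313, minus strand: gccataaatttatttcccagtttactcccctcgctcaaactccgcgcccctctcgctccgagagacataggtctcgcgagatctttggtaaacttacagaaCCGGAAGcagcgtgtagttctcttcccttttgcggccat
RPL9, chr4:39458903-39459042, minus strand: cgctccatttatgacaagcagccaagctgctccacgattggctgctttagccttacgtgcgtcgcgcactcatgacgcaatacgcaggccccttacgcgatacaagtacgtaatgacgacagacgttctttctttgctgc
RPL39, chrX:119791611-119791750, minus strand: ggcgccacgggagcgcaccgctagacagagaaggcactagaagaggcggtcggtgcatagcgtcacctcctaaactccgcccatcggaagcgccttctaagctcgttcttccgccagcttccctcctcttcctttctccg

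RefSeq promoters, 250 bases before to 50 after the start, were matched by symbol for 64 of the 81 members. The ETS word on either strand was in 22 of them (34.4%), against 10.3% of 35116 promoters in the table. A pyrimidine run at the start (a C followed by at least 5 further C or T, with all 6 bases within 10 bases of it) was in 46 (71.9%), against 16.7%. A match is a description of letters, not of binding.

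The libraries held 28037392 to 36829479 counts. ETV4 had 586 and 1063 counts in the parental DMSO and E2 libraries and 71 to 122 in the 4 clone libraries, and it fell by 3.04 on the log2 scale in the clones (SE 0.21; edgeR adjusted p of 0.00868). All 6 epithelial and endometrial markers were expressed, EPCAM at 325 to 467 CPM and ESR1 at 149 to 276 CPM. CD3E had 0 counts in every library, and PECAM1 and CDH5 were at or below 0.0686 CPM. The stromal genes DCN and LUM were at or below 0.0837 CPM, although COL1A1 was at 44.8 to 75.2 CPM. Of the markers looked up, 1 of 3 endothelial, 2 of 5 stromal and 0 of 3 leukocyte genes had a mean of at least 2 CPM. The parental DMSO library stood apart: its TMM factor (the scaling for library composition) was 0.899 against 1.01 to 1.04 in the others, and it was the highest or lowest of the 6 for 35.8% and 31.8% of 12367 genes.

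Ribosomal protein genes took 10.2% of all counts in the parental DMSO library and 5.95% to 7.92% in the other 5. The unscaled share was 6.42% in parental cells in E2. In clone 1 it was 7.92% in DMSO and 7.03% in E2, and in clone 2 it was 5.95% and 6.38%. The clones averaged 6.93% ± 1.40 (SD, n = 2) in DMSO and 6.71% ± 0.463 (SD, n = 2) in E2, so the parental DMSO share lay above both clones and the parental E2 share within 1 SD of them. The 95% Wilson interval of the parental DMSO share was 10.19% to 10.21%; such intervals cover counting error only. In bulk libraries, a lower level in each cell and fewer expressing cells cannot be told apart. Large-subunit genes made up 6.09% and small-subunit genes 4.11% of the parental DMSO library, against 3.99% and 2.43% in parental E2.

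**Figure D1:**
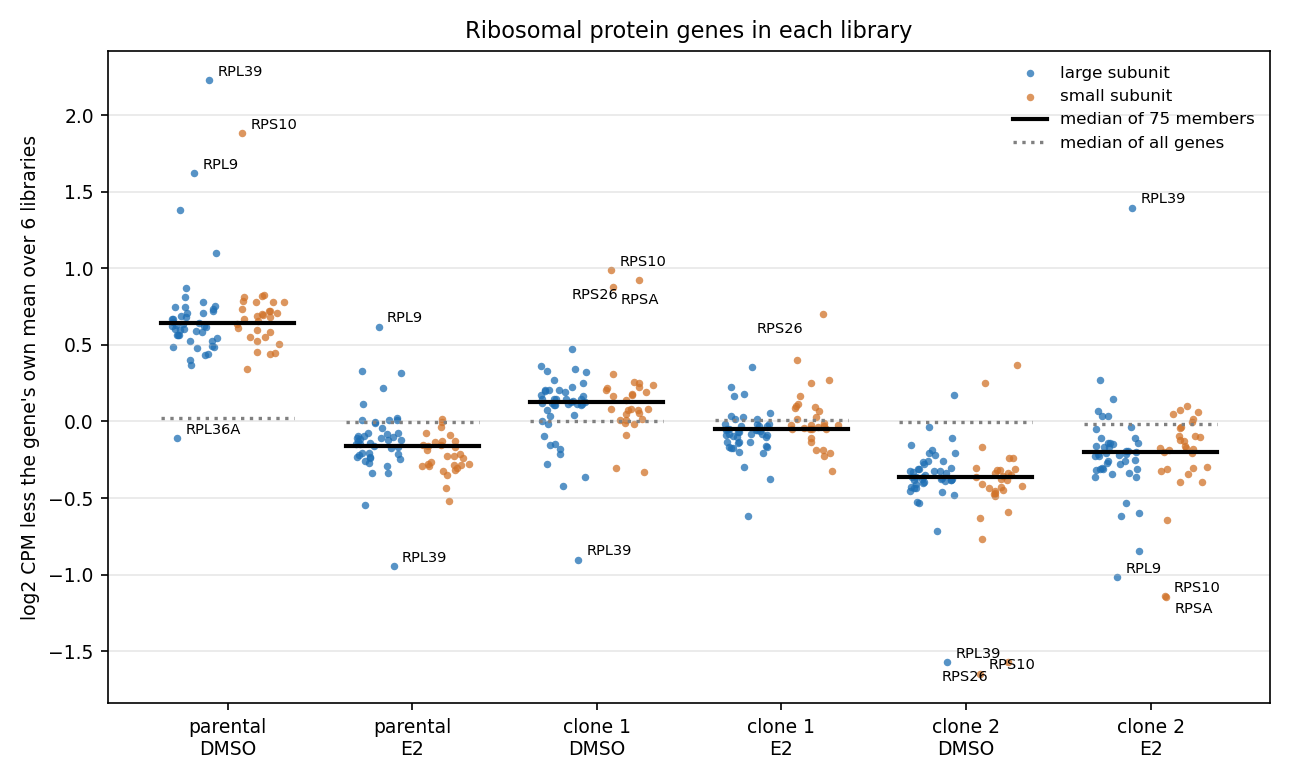
Each point is 1 of 75 ribosomal protein genes: its log2 CPM in a library (x axis) less its own mean over the 6 libraries (y axis), with medians of the members (black bars) and of all genes (dotted bars). The members' median stood at 0.64 in the parental DMSO library and between -0.37 and 0.13 in the other 5.

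The members kept together across libraries. Measured as log2 CPM less each gene's own mean, their median was 0.64 in parental DMSO, -0.16 in parental E2, 0.13 and -0.05 in clone 1 in DMSO and E2, and -0.37 and -0.20 in clone 2. Around those medians they kept close: 67 of 75 members lay within 0.25 of the members' median in the parental DMSO library, where 40.3% of all genes lay within 0.25 of theirs. The count was 60 to 66 of 75 in the other 5 libraries, against 66.1% to 79.0% of all genes. The members' median level was 900 CPM against 37.0 over all these genes, so the spreads were not compared at equal levels. The parental DMSO library was the highest of the 6 for 72 of 75 members (96.0%), against 35.8% of all genes. The exceptions were RPL36A, highest in parental E2, and RPS26 and RPSA, highest in clone 1 in DMSO. Clone 2 in DMSO was the lowest library for 52 members, against 19.9% of all genes. Whether a difference in the making of the parental DMSO library has a part in this was not tested.

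The E2 difference was read within each line as log2 CPM in E2 minus log2 CPM in DMSO. The parental median over 75 members was -0.80, a 1.74-fold lower level in E2, with 74 of 75 below 0; the median of all genes was -0.03. A total of 60 members were at least 1.5-fold lower (18.3% of all genes were) and 18 at least 2-fold lower (3.87%). In clone 1 the median was -0.19, with 64 of 75 below 0 and RPS10 alone at least 1.5-fold lower (3.78% of all genes) and RPL39 and RPS15A at least 1.5-fold higher (5.87%). In clone 2 it was 0.18, with 60 of 75 above 0. There RPL36A, RPL39 and RPS26 were at least 1.5-fold higher (4.98%), and 3 members, RPL9 and RPS15 among them, at least 1.5-fold lower (4.46%). The 3 line medians averaged -0.27 ± 0.49 (SD, n = 3), and an exact permutation test of 1 line against 2 cannot give a p below 0.333. The commonest pattern was lower in E2 in the parental line and clone 1 and higher in clone 2, seen in 50 of 75 members against 16.1% of all genes. The parental line had the most negative ratio of the 3 lines for 72 of 75 members (39.9% of all genes). A ratio below 0 in all 3 lines was found for 14 members (26.9%), among them RPL3, RPL4, RPL7, RPL9, RPL10, RPL13, RPL13A, RPL15, RPLP0, RPS9, RPS15, RPS27 and RPSA.

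The size of this difference depended on a correction for transcript length and GC content. The members are short, with a median transcript of 1028 bases against 3171 over all genes with at least 2 CPM, at a similar GC content (49.0% and 48.6%). Both were read on 1 transcript per gene, the longest among equally ranked ones. Some members, such as RPL37 (7686 bases) and RPL14 (7072 bases), were thus corrected as long genes. After each library was corrected for its trend on GC content and length, the parental median was -0.35, with 63 of 75 below 0, the count at least 1.5-fold lower was 18 of 75, and the parental DMSO library was the highest for 50 of 75. The corrected median was -0.07 in clone 1, with 48 of 75 below 0, and 0.11 in clone 2, with 53 of 75 above 0. Scaling by total counts alone moved the all-gene parental median to 0.14 and the members' median to -0.62.

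Large-subunit genes had a parental E2 median of -0.77 over 45 genes, and 44 were below 0. The 9 at -1 or lower were RPL39, RPL41, RPL13A, RPL26, RPL5, RPL27A, RPL35, RPL9 and RPL29. Among those from -0.97 to -0.76 were RPL27, RPL32, RPL24, RPL7A, RPL19, RPL15, RPLP0, RPL18, RPL14, RPL34, RPL28, RPL37A, RPLP1 and RPL38. From -0.74 to -0.50 came RPL23A, RPL36, RPL35A, RPLP2, RPL30, RPL10, RPL13, RPL8, RPL7, RPL3, RPL37, RPL31, RPL4 and RPL6. RPL23, RPL17, RPL11, RPL12, RPL10A and RPL22 lay between -0.48 and -0.38, and RPL36A stood alone above 0, at 0.44.

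RPL5 and RPL11, which bind ribosomal RNA together and can hold the p53 regulator MDM2 outside the ribosome, stood in different parts of that order. RPL5 was at 2699 CPM in parental DMSO, 1307 in parental E2, 1703 and 1464 in clone 1, and 1165 and 1285 in clone 2. RPL11 was at 1283, 954, 977, 931, 793 and 829 CPM in the same order. Both were highest in parental DMSO, but the parental log2 ratio was -1.05 for RPL5 and -0.43 for RPL11. RPLP0, RPLP1 and RPLP2 form the stalk that recruits elongation factors, and they kept together. RPLP0 was at 5290 and 2922 CPM in the parental line, 4412 and 3301 in clone 1, and 2751 and 2668 in clone 2. Parental ratios were -0.86 for RPLP0, -0.77 for RPLP1 and -0.70 for RPLP2, and in clone 2 they were -0.04, 0.10 and 0.00. RPL26, which also binds p53 mRNA, was at 2230 and 1031 CPM in the parental line, 1100 and 1109 in clone 1, and 926 and 1248 in clone 2. The 4 clone libraries and parental E2 thus lay within 926 to 1248 CPM, with parental DMSO above them all. RPL22, which has a close paralog in RPL22L1, differed least among the genes below 0, at 461 and 355 CPM in the parental line.

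Small-subunit genes had a parental E2 median of -0.93 over 30 genes, all below 0. Among the 9 at -1 or lower were RPS10, RPS3A, RPS6, RPS27, RPS7, RPS16, RPS3 and RPS14. From -0.99 to -0.77 lay RPS21, RPS29, RPS4X, RPSA, RPS13, RPS24, RPS12 and RPS9, with others. RPS19, RPS15, RPS25, RPS26, RPS20, RPS27A, RPS15A, RPS23, RPS2 and RPS28 lay from -0.75 to -0.51, and RPS27L was at -0.46. In the clones the small- and large-subunit medians were -0.18 and -0.20 in clone 1 and 0.26 and 0.15 in clone 2.

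RPS6, the ribosomal substrate of S6 kinase, was at 5417 CPM in parental DMSO and 2458 in parental E2. It was at 3519 and 3545 CPM in clone 1 and at 2671 and 3049 in clone 2, so parental E2 was its lowest library. RPS3A was at 3528 and 1389 CPM in the parental line, 1970 and 1946 in clone 1, and 1559 and 2136 in clone 2. RPS14, the ribosomal gene lost in the 5q- syndrome, was at 2318 and 1128 CPM in the parental line, 1460 and 1205 in clone 1, and 1191 and 1422 in clone 2. For each of these genes the parental libraries were both the highest and the lowest of the 6. RPS27A, which is made as a fusion with ubiquitin, had a parental ratio of -0.69, with -0.05 in clone 1 and 0.48 in clone 2. RPS27L, a diverged paralog of RPS27 known as a p53 target, was at 93.2 and 67.8 CPM in the parental line and 53.8 to 71.6 in the clones. RPS27 itself was at 529 and 246 CPM in the parental line, 338 and 326 in clone 1, and 268 and 193 in clone 2.

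**Figure D2:**
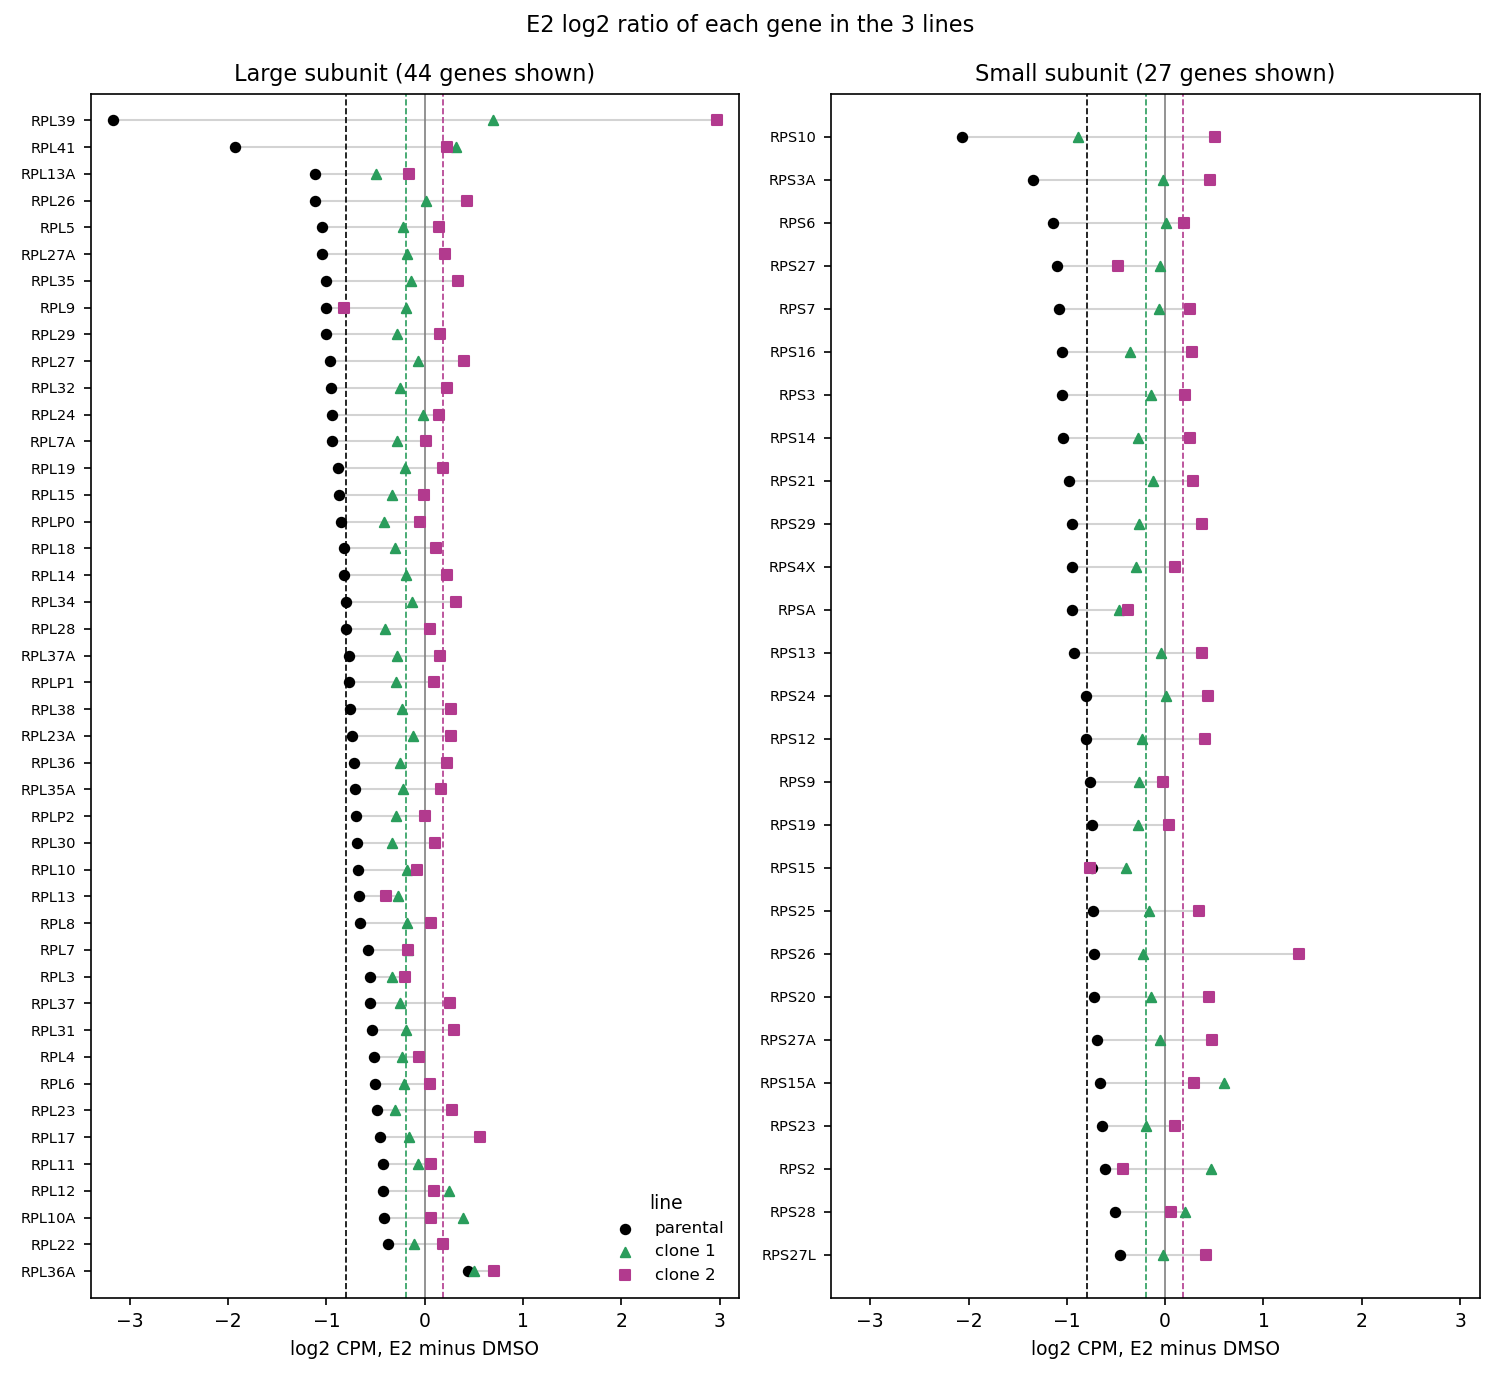
Log2 CPM in E2 minus DMSO (x axis) for large-subunit genes (left) and small-subunit genes (right), a few not shown, in the parental line (circles), clone 1 (triangles) and clone 2 (squares), with the line medians dashed at -0.80, -0.19 and 0.18. RPL39, RPL41, RPS10, RPS26 and RPL36A lay far from the set median in at least 1 line.

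Exceptions were members farther than 3 scaled median absolute deviations from the set median. They were picked by the same values that are described here, so no test is given. In the parental line 4 members departed: RPL39 (-3.17), RPS10 (-2.07) and RPL41 (-1.93) below, and RPL36A (0.44) above. The nearest member inside the limit was RPS3A (-1.34), and the nearest outside was RPL41. In clone 1, RPL39 (0.70), RPS15A (0.60), RPL36A (0.50), RPS2 (0.47), RPL10A (0.39), RPL41 (0.32) and RPL12 (0.24) stood above, and RPS10 (-0.89) below. RPS28, at 0.20, was just inside and RPL12 just outside. In clone 2, RPL39 (2.97) and RPS26 (1.36) stood above, and 5 members below, among them RPL9 (-0.83), RPS15 (-0.77), RPS27 (-0.48) and RPS2 (-0.43). RPL13, at -0.39, was just inside and RPS2 just outside. RPL39 alone departed in all 3 lines.

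RPL39 is a very small protein beside the exit tunnel for the growing chain. It was at 609 CPM in parental DMSO and 67.5 in parental E2. In clone 1 it was at 69.6 in DMSO and 113 in E2, and in clone 2 at 43.7 and 343. The parental DMSO and clone 2 E2 libraries were high and the other 4 lay between 43.7 and 113 CPM. Both treatments therefore held a high and a low library. RPL41, among the shortest proteins known, was at 464 and 122 CPM in the parental line, 160 and 200 in clone 1, and 123 and 144 in clone 2. For RPL41 the parental DMSO library alone was high.

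RPS10, a protein of the small-subunit head that is mutated in some cases of Diamond-Blackfan anemia, was at 182 CPM in parental DMSO and 43.4 in parental E2. It was at 97.9 and 52.8 in clone 1 and at 15.7 and 22.3 in clone 2. Both clone 2 libraries lay below every other library. RPS26, another Diamond-Blackfan anemia gene, was at 14.4 and 8.68 CPM in the parental line, 20.2 and 17.3 in clone 1, and 3.52 and 9.16 in clone 2. Its 6 counts ran from 103 to 722. Clone 1 was high in both treatments and clone 2 in DMSO was low.

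RPL36A was at 10.6 and 14.3 CPM in the parental line, 9.38 and 13.3 in clone 1, and 8.40 and 13.7 in clone 2. It was the only member higher in E2 in all 3 lines (26.8% of all genes were), and the only one with every E2 library above every DMSO library (12.9%). RPS15 was the only member with every E2 library below every DMSO library (11.6% of all genes): its DMSO libraries were at 373 to 502 CPM and its E2 libraries at 269 to 300. RPS2 was at 1825 and 1197 CPM in the parental line, 1168 and 1615 in clone 1, and 1714 and 1270 in clone 2, so its E2 library was the higher one only in clone 1.

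**Figure D3:**
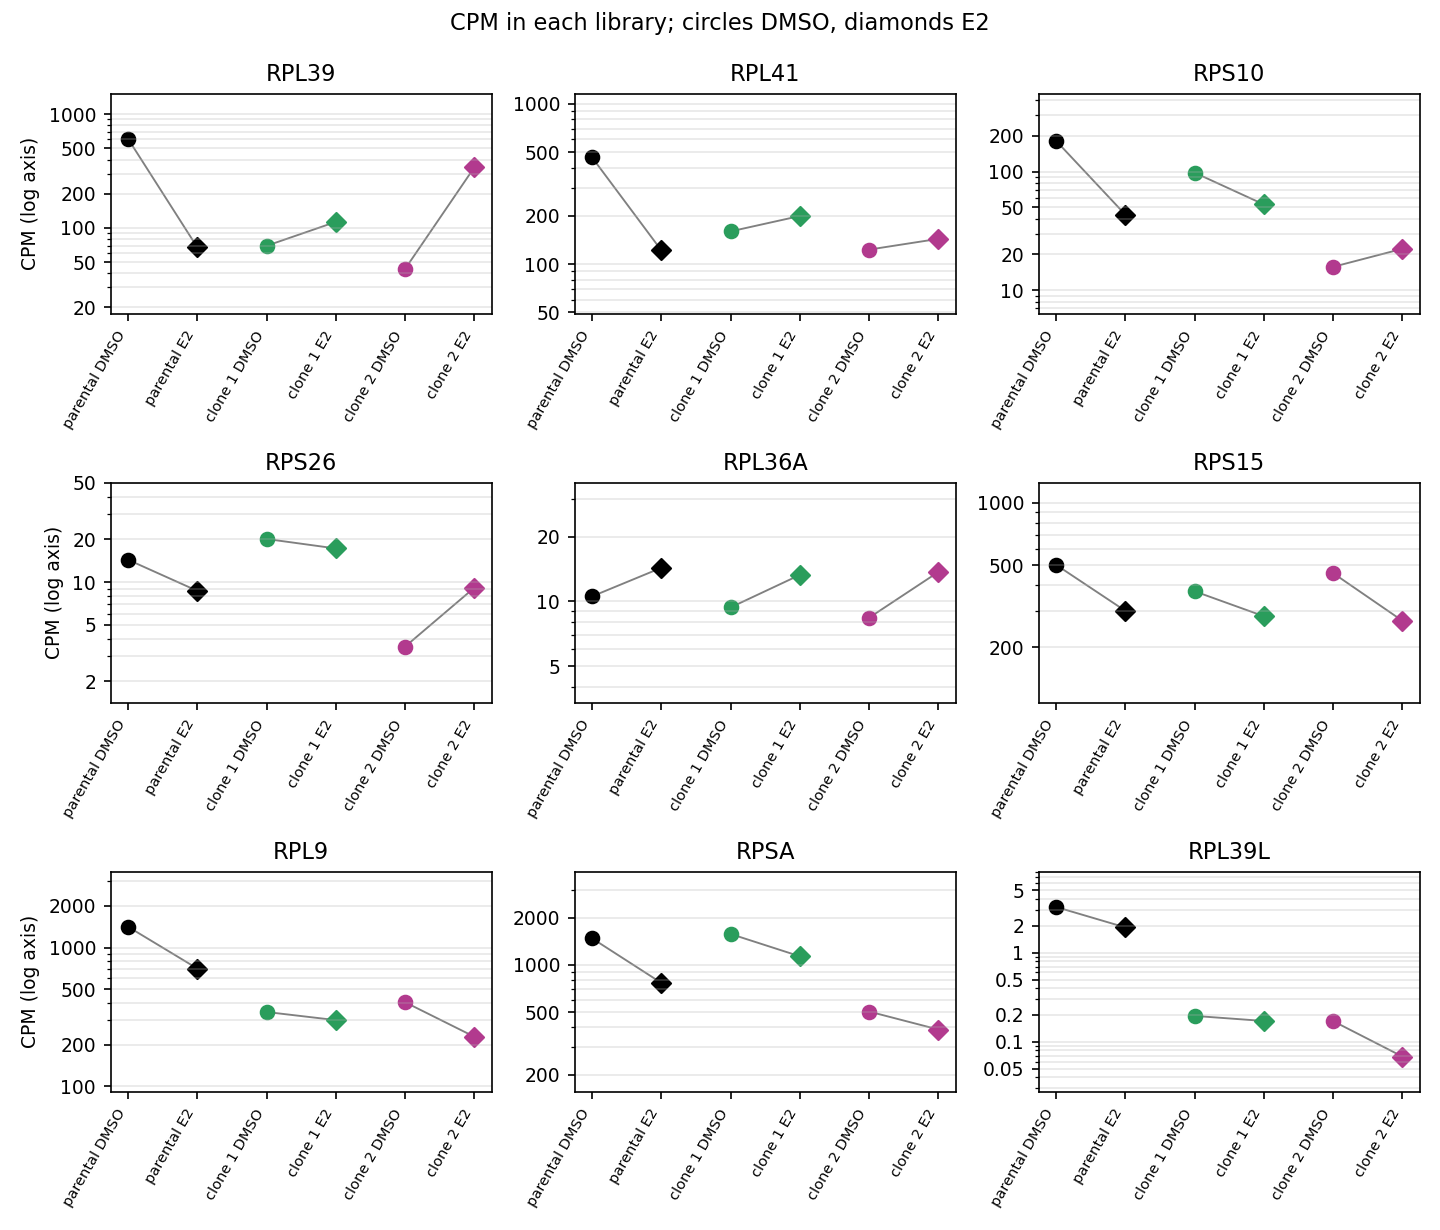
CPM on a log axis in each library (circles, DMSO; diamonds, E2; lines join the 2 libraries of a cell line) for 8 members that did not follow the set and for RPL39L. RPL39 ran from 43.7 to 609 CPM with a high library in each treatment, while RPL9 and RPL39L were lower in all 4 clone libraries than in both parental ones.

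In the fit of E2 against DMSO over all 6 libraries with genotype in the model, none of 77 members passed a Benjamini-Hochberg adjusted p of 0.05 by the quasi-likelihood test of edgeR, where 1.13% of all genes did. At an unadjusted p under 0.05 there were 5 (20.4% of all genes), RPL36A higher and the other 4, with RPL3, RPL9 and RPS15 among them, lower. The nearest to the threshold was RPS15, at -0.64 on the log2 scale (SE 0.14; adjusted p of 0.0957). RPL36A was at 0.55 (SE 0.14; adjusted p of 0.135) and RPL9 at -0.67 (SE 0.18; adjusted p of 0.147). The members' median difference was -0.30, with 71 of 75 below 0, against -0.03 over all genes of at least 2 CPM. After the GC and length correction it was -0.11. DESeq2 called 4 members, 1 higher and 3 lower (5.45% of all genes), and limma-voom (1.11%) and edgeR with line as a block (2.46%) called none. With clone 2 left out, edgeR called 19 members, all lower (21.6% of all genes); with its DMSO library alone left out it called 5, all lower (10.9%). Without the parental DMSO library the median was -0.05, without the parental E2 library -0.03, and without clone 2 in DMSO -0.52.

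The knockout comparison sets each clone against the parental line and was read first within each treatment. Against the parental library in DMSO, the median log2 difference was -0.51 in clone 1 and -1.01 in clone 2. Below 0 were 73 and 75 of 75 members, and at least 1.5-fold lower were 27 (6.19% of all genes) and 71 (19.3%). In clone 2, 42 members were at least 2-fold lower (3.95%). Against the parental library in E2 it was 0.11 in clone 1 and -0.06 in clone 2, with 57 of 75 members above 0 and 46 of 75 below 0. The comparisons in 1 treatment share a parental library. The 2 in DMSO rest on the same library as the parental E2 difference. After the GC and length correction the DMSO medians were -0.19 in clone 1 and -0.51 in clone 2, and the E2 medians 0.11 and -0.08.

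The members that departed from these medians by over 3 scaled median absolute deviations were again picked by the values described. In DMSO, members below included RPL39 (-3.13), RPL9 (-2.04) and RPL41 (-1.54) in clone 1, with RPS26 (0.48) and RPSA (0.09) above. Clone 2 had RPL39 (-3.80), RPS10 (-3.53), RPS26 (-2.01), RPL41 (-1.91), RPL9 (-1.81) and RPSA (-1.55) below, and RPL22, RPL36A, RPS2 and RPS15 above. RPL39, RPL41 and RPL9 were thus below the median in both clones. In E2, members below included RPL9 (-1.24) in clone 1, with RPS26 (0.99), RPL39 (0.74) and RPL41 (0.71) above. Those below in clone 2 included RPL9 (-1.63), RPSA (-0.99), RPS10 (-0.96) and RPL12 (-0.83), with RPL39 (2.34) and RPS3A (0.62) above. RPL9 lay below in all 4 comparisons, while RPL39 and RPS26 were below in some and above in others.

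**Figure D4:**
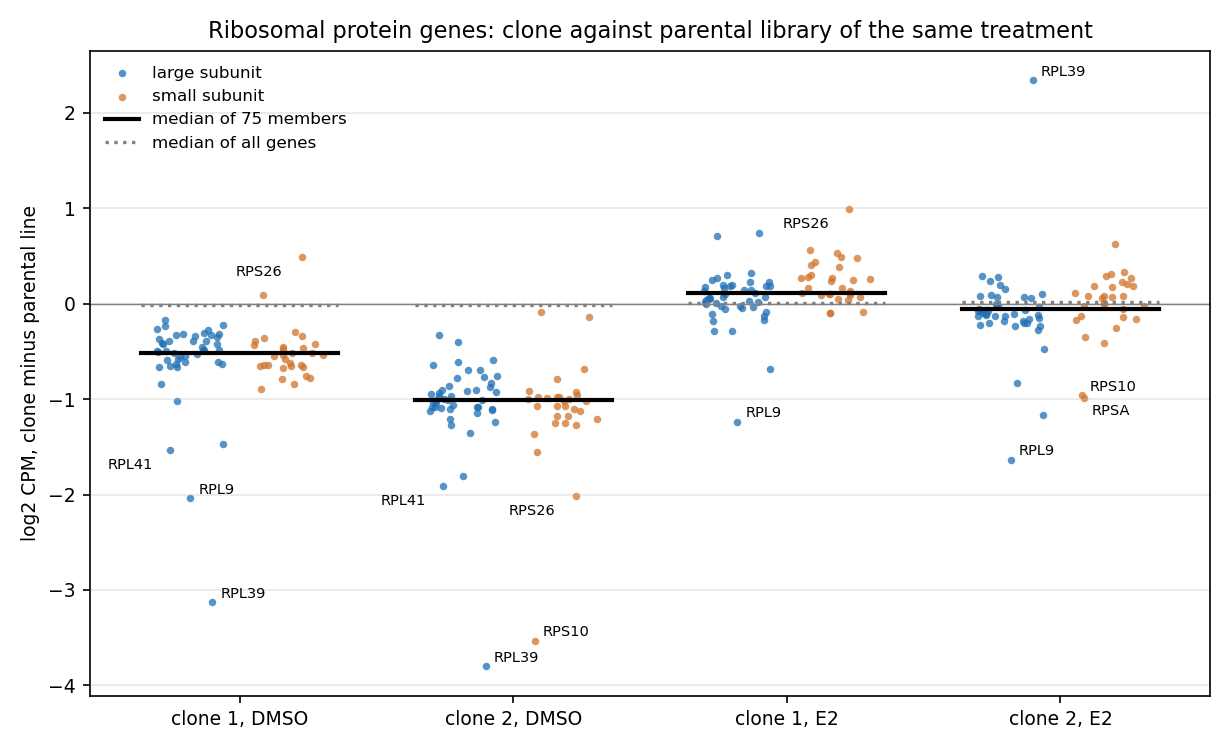
Log2 CPM of each clone minus the parental line in the same treatment (y axis) for 75 members, with medians of the members (black) and of all genes (dotted). The medians were -0.51 and -1.01 in DMSO and 0.11 and -0.06 in E2, while RPL9 lay below the others in all 4 comparisons except where RPL39, RPL41, RPS10 or RPS26 lay lower still.

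Over both treatments the members' median knockout difference was -0.36, with 74 of 75 below 0, against -0.0081 over all genes of at least 2 CPM. After the GC and length correction it was -0.15. It was 0.02 without the parental DMSO library and -0.75 without the parental E2 library. By the quasi-likelihood test of edgeR, 2 of 77 members fell at an adjusted p of 0.05, RPL9 and RPL39L (0.327% of all genes changed and 0.179% fell). DESeq2 called 3, all lower (2.19% of all genes). RPL9, a large-subunit protein near the base of the stalk, was at 1412 and 706 CPM in the parental line, 343 and 300 in clone 1, and 403 and 227 in clone 2. Every clone library was below both parental libraries. The clones averaged 373 ± 42.4 CPM in DMSO and 264 ± 51.3 in E2 (SD, n = 2). RPL9 fell by 1.68 on the log2 scale (SE 0.19; edgeR adjusted p of 0.0271). Left out 1 at a time, the parental DMSO, parental E2, clone 1 DMSO or clone 2 E2 library each took the adjusted p above 0.05 (0.276, 0.137, 0.0936 and 0.126), at log2 differences of -1.92 to -1.43. The edgeR fit counted the DMSO and E2 libraries of a line as separate replicates of its genotype. With line as a random block, the limma-voom adjusted p of RPL9 was 0.0482, and with the GC and length correction as well 0.0818. In GENCODE 29, 36 of 75 members overlap a gene on the other strand, RPL9 among them with LIAS. LIAS was at 10.1 to 19.7 CPM. Without a statement on strand in the counting, reads of such pairs cannot be told apart.

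RPL39L, a paralog of RPL39 found mainly in testis and in some tumors, had few counts: 97 and 72 in the parental line, 7 and 5 in clone 1, and 5 and 2 in clone 2. The groups did not overlap. It fell by 4.05 on the log2 scale (SE 0.36), with an adjusted p of 0.0200 in the same edgeR test. The same 4 libraries, left out singly, each ended that call (0.276, 0.144, 0.0615 and 0.0613), at log2 differences of -4.12 to -3.88. RPL39L did not follow RPL39, whose knockout difference was -1.69 (SE 1.30; adjusted p of 0.582). Every clone library was below both parental ones for 3 of 75 members, against 8.23% of all genes. RPL9 and RPL17 were among them, and RPL17 had a difference of -0.51 (SE 0.21; edgeR adjusted p of 0.431).

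The difference of the E2 effect between clones and parental line was above 0 for all 75 members, with a median of 0.75 against -0.01 over all genes of at least 2 CPM. Without a term for line, edgeR's test called no gene at all (0.00%), and 23 members had an unadjusted p under 0.05, all higher (4.95% of all genes were higher at that p). With line as a replicate block, the same test called 44 of 77 members, all higher (15.8% of all genes changed, 8.90% higher). They were 21 large-subunit and 23 small-subunit genes. That fit had 1 parental pair and left 1 residual degree of freedom, the difference between the E2 effects of the 2 clones. Its SEs also borrow spread from other genes. They and the calls hold no spread for the parental line. RPL39 had the largest difference, 5.01 (SE 0.28), although its clone values were far apart, at 0.70 and 2.97. RPL41 followed with 2.20 (SE 0.26), then RPS10 with 1.82 (SE 0.23), RPS3A with 1.56 (SE 0.27) and RPL26 with 1.33 (SE 0.27). With the block and the GC and length correction together, 17 members were called (5.49% of all genes). DESeq2, without the block, called 8 (0.131%). The GC and length correction alone gave a median of 0.33.

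Between the clones, members were lower in clone 2. The median difference was -0.28 over both treatments, with 68 of 75 below 0, and both clone 2 libraries lay below both clone 1 libraries for 48 of 75 members (25.5% of all genes). RPL22 alone showed the reverse order, at 348 and 395 CPM in clone 2 and 314 and 290 in clone 1. Without clone 2 in DMSO the median was 0.0035 and without clone 2 in E2 it was -0.66. By edgeR's test 1 member passed (0.871% of all genes, 0.628% lower): RPSA, a small-subunit protein also described as a laminin receptor precursor. It was at 1572 and 1133 CPM in clone 1, 504 and 387 in clone 2, and 1476 and 768 in parental cells. Both clone 2 libraries were below the other 4. RPSA was lower in clone 2 by a log2 difference of -1.59 (SE 0.21; edgeR adjusted p of 0.0343). Without clone 1 in DMSO the adjusted p was 0.0616, without clone 1 in E2 it was 0.226, and with only genes of at least 10 counts in every library 0.0523. With the parental DMSO library left out, which left 1 parental library, the members' median difference was -0.30. Without the parental E2 library that median was also -0.30. DESeq2 called 3 (1.74%). RPSAP58, a processed copy of RPSA with its own row, was at 104 and 81.3 CPM in clone 1 and 125 and 222 in clone 2; its part in the RPSA result was not tested.

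A few members had almost no counts. RPL21 and RPS18, both standard ribosomal proteins, had 0 or 1 count in every library. RPL10L, a testis paralog of RPL10, had 0 to 2, and RPL3L, the paralog used in skeletal muscle and heart, had 9 to 28. A count of 0 allows up to 3 counts, or 0.0802 to 0.103 CPM in these libraries. RPL21 and RPS18 share 57.4% and 39.2% of their 50-base stretches with transcripts of other genes in GENCODE 29, mostly pseudogenes, and how reads that match several places were counted is not given in the sources used here. The read-through genes RPS10-NUDT3 and RPL36A-HNRNPH2 had 0 counts in every library.

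Sequence shared with other genes was compared as a description. The 13 that departed in at least 1 line's E2 ratio shared a median of 54.0% of their 50-base stretches (13.7% to 82.2%), and 8 of 13 shared over 50%. The other 62 shared a median of 12.9% (0% to 83.4%), and 8 of 62 shared over 50%. Shares were taken on 1 transcript per gene, the longest among equally ranked ones, and a long transcript holds more stretches. Among the 62, RPL37 had 7686 bases and shared 1.34%, and RPL14 had 7072 and shared 5.99%. The longest of the 13 was RPS15A, at 2203 bases. What part this choice has in the contrast was not tested. RPS10 shared 82.2%, RPL36A 80.3%, RPL9 54.0% and RPL39 36.6%. RPS3A shared 83.4% and stayed inside the limit in every line. Whether read assignment has a part in the departures was not tested.

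Promoter letters were set beside the values as a description. The 21 measured members with the ETS word had a median knockout difference of -0.33 (-1.01 to -0.24), and the 40 without it had -0.38 (-1.69 to 0.14). Their parental E2 medians were -0.95 and -0.79, and in clone 2 they were 0.22 and 0.15. For the 44 with a pyrimidine run and the 17 without one, the parental E2 medians were -0.84 and -0.69.

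Other genes of the translation machinery were read from lists written with earlier results of these data known. Ribosomal proteins outside the symbol rule followed the members: 7 of 13 were tested, with E2 medians of -0.55 (parental), -0.14 (clone 1) and 0.19 (clone 2). FAU, which encodes RPS30 as a fusion, was at 441 and 263 CPM in the parental line, 311 and 263 in clone 1, and 240 and 279 in clone 2. GNB2L1, the scaffold RACK1, had E2 ratios of -0.50, -0.27 and -0.11. RPL7L1, a biogenesis factor related to RPL7, stood off them with 0.06, 0.16 and 0.10.

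Elongation factors and other TOP-type mRNAs differed among themselves. Over 22 tested genes the E2 medians were -0.54 (parental), -0.14 (clone 1) and -0.03 (clone 2), and 17 of 22 were below 0 in the parental line. EEF1A1, which carries aminoacyl-tRNA to the ribosome, was at 21329 and 9347 CPM in the parental line, 6474 and 3849 in clone 1, and 11801 and 12106 in clone 2. TPT1 (-1.10) and EEF1B2 (-1.0) were also lower in parental E2, while EEF2 (-0.02), EEF1G (0.05) and PABPC1 (-0.12) were near 0. PABPC4 (1.33) and LARP1 (1.13), a regulator of TOP mRNAs, stood higher there. None of the 22 passed the E2 or the knockout test.

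Ribosome biogenesis factors had E2 ratios mostly above 0 in every line. Their medians over 66 tested genes were 0.37 (parental), 0.23 (clone 1) and 0.38 (clone 2), with 49, 56 and 64 genes above 0. NOP2, an rRNA methyltransferase, had 1.14, 0.66 and 0.60, and the assembly factor RRP12 had 1.39, 0.66 and 0.45. NPM1 (-0.54) and NHP2 (-0.75) were below 0 in the parental line. None of the 66 passed the E2 or the knockout test. RNA polymerase I genes had medians of 0.03, 0.08 and 0.27 over 18 tested, and initiation factors -0.17, 0.13 and 0.19 over 21. Among 12 snoRNA host genes the medians were -0.27, 0.01 and 0.32. SNHG12 alone passed the E2 test, higher by 0.98 (SE 0.14, edgeR adjusted p of 0.0286). GAS5 (-0.95) and ZFAS1 (-1.02), hosts that carry TOP-type starts, were lower in parental E2, as the members were.

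**Figure D5:**
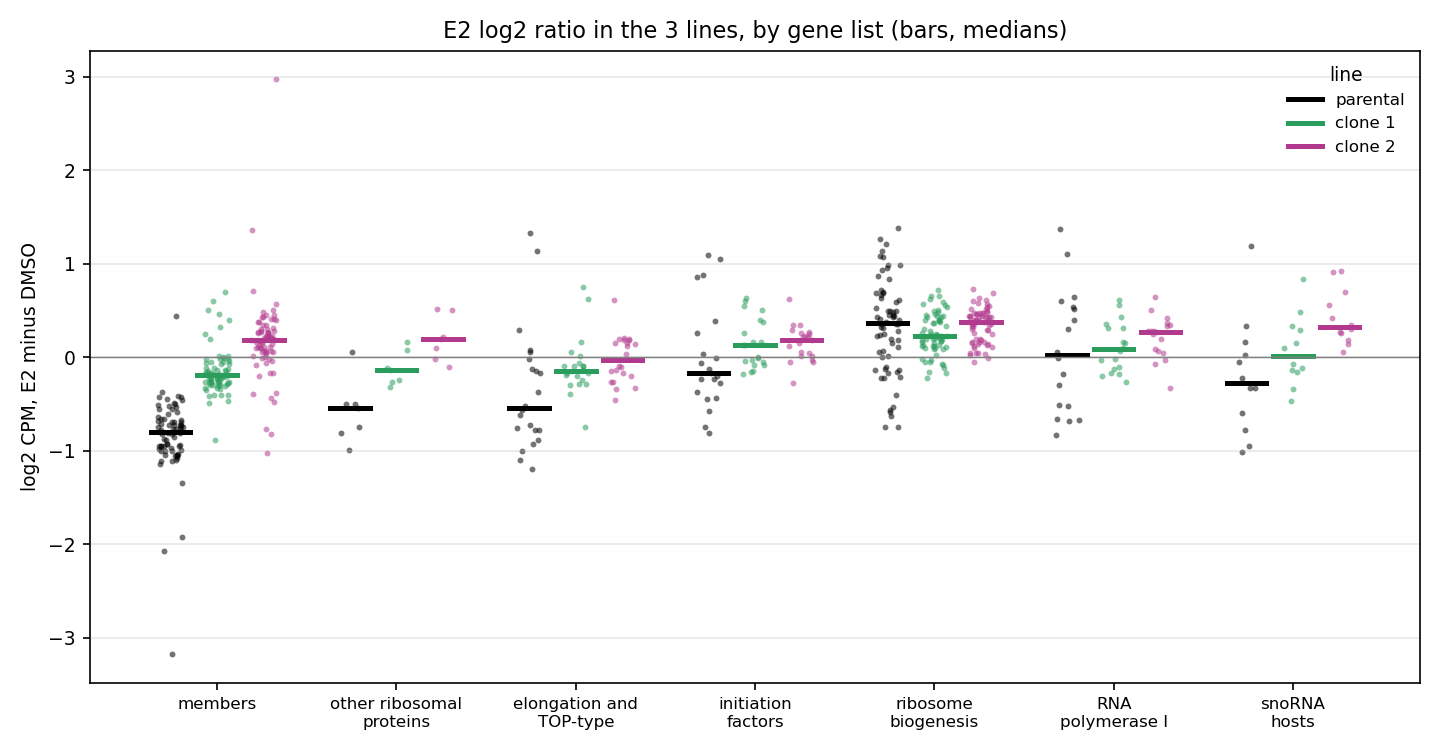
Log2 CPM in E2 minus DMSO (y axis) for the genes of each list (points) with the list median (bar) in the parental line, clone 1 and clone 2. The parental medians ran from -0.80 for the members to 0.37 for ribosome biogenesis factors.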

How the data were processed

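Poly(A)-selected RNA was made into libraries with a stranded kit, per the labels' protocols. The authors deposited whole-number read counts per gene symbol; the submitters' processing notes name HISAT2, SAMtools, Subread and DESeq2 and the build hg19, without versions. Annotation, use of strand and treatment of reads with several matches are not given in the sources used here. Column names with DMOS and ER were read as DMSO and E2.

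Here the 6 columns of counts, 28037392 to 36829479 per library, went into edgeR 4.0.16 (R 4.3.3). The filter filterByExpr on the 4 groups left 15611 of 26364 genes, TMM set the scale, and the quasi-likelihood test gave p-values, adjusted after Benjamini and Hochberg over all genes tested. An SE is the size of the log2 difference over the square root of F. Ratios of 2 libraries are differences of log2 CPM with a prior count of 2. DESeq2 1.42.0, limma-voom (limma 3.58.1), other scalings and filters, a GC and length correction, a block and left-out libraries were alternatives. Lengths, GC content and shared 50-base stretches were read on 1 GENCODE 29 transcript per gene, and promoters came from RefSeq (GRCh38.p14). A second deposited table of normalized values was not used.

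The members, gene lists and naming rules were chosen with earlier results of these data known. Genes were named as members, as members past a threshold or over 3 scaled median absolute deviations from the set median, or from the lists. EEF1A1 and the other list examples were picked after their values were seen. A replicate number names the same clone in DMSO and E2, so it pairs those libraries; the clone 2 minus clone 1 differences of the treatments correlated at 0.739 over 12367 genes and at 0.445 over 75 members. A few genes are not reported here by name, so some lists are shorter than their counts.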

Additional observations from a re-analysis of the deposited data

Results flagged for a closer look

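The ribosomal protein genes' median E2 log2 ratio had opposite signs in clone 2 and the other lines. It was 0.98 higher in clone 2 than in the parental line and 0.38 higher than in clone 1, with 1 library per treatment in each line, so these differences were not tested. With line as a replicate block, 44 of 77 members passed a test of a different E2 effect in clones and parental line, all higher. Of all genes 15.8% passed, and 8.90% passed as higher. That fit had 1 parental pair and 1 residual degree of freedom.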

How the results depend on the processing

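Counts of called members stayed within 1.5 times of those reported under median-ratio scaling, total-count scaling, TMM without the members, no low-count filter and limma-voom in all 4 comparisons. DESeq2 called 4 members for E2 (5.45% of all genes), 8 for the difference of E2 effects (0.131%) and 3 between the clones (1.74%). Requiring at least 10 counts in every library gave 1 call for the knockout (48 of all 13821 genes), where RPL39L could not be tested. It gave 0 between the clones (63 of all 13821 genes), where edgeR's adjusted p of RPSA was 0.0523.

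With the clone number as a replicate block, the calls for the difference of E2 effects were 44 (15.8% of all genes). With the GC and length correction as well they were 17 (5.49%), at a median of 0.34. The block with that correction called 2 of 77 members for E2 (1595 of all 15611 genes) and 1 for the knockout (68 of all 15611 genes). RPL9 then had a knockout difference of -1.46 and a limma-voom adjusted p of 0.0818. The block alone changed no call for E2 or the knockout, and between the clones no block could be added because line is already compared.

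The correction alone put the fitted E2 median at -0.11, the knockout median at -0.15, the median difference of E2 effects at 0.33, the E2 ratios at -0.35 (parental), -0.07 (clone 1) and 0.11 (clone 2), clone 2 against parental in DMSO at -0.51, and the members at least 1.5-fold lower in parental E2 at 18. A wider set with other ribosomal proteins added is not reported here. A limit of 2 scaled median absolute deviations gave 11 departing members for the E2 ratio of clone 2. Against the parental line it gave 17 for DMSO-treated clone 2 and 11 for E2-treated clone 1, where a limit of 4 gave 3.

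Over fits that left out 1 library or line, calls ranged from 0 to 19 for E2, 0 to 5 for the knockout, 0 to 3 for the difference of E2 effects and 2 to 23 between the clones. The number of all genes called also moved over the same fits in every comparison, so the moving calls were not particular to the members. The 19 for E2 came without clone 2, where 21.6% of all genes were called. The set medians ranged from -0.52 to -0.03 for E2, from -0.75 to 0.0227 for the knockout, from 0.53 to 1.05 for the difference of E2 effects and from -0.66 to 0.0035 between the clones. The positive knockout median, 0.0227, came without the parental DMSO library, and the positive clone median, 0.0035, without clone 2 in DMSO. Where a group was left with 1 library, it was assumed to vary like the others; the difference of E2 effects was not run without a whole line or a parental library. The causes were not tested.

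No parental library has a replicate and each knockout line is 1 clone. RPL39L rests on 2 to 7 counts in the clones, and members near 0 counts could not be tested.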
